A study of Mus musculus with 4 samples.

Results

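The sleep-deprived library was set against the ad lib sleep library of the mouse primary motor cortex, and the comparison was described over all genes, in all nuclei, in neurons and in the other nuclei. The assay was single-nucleus RNA sequencing of frozen tissue, in which droplets capture nuclei and each RNA molecule is counted by a unique molecular identifier (UMI). All 4 libraries of the study came from C57BL/6N mice, a common inbred strain. One library came from mice with no sleep deprivation and one from mice kept awake by gentle handling, that is, by mild disturbance. The other two came from the same cortical area after local injection of an adeno-associated vector, AAV8-hSyn-FLAG-SIK3, with wild-type SIK3 in one library and a SIK3 lacking exon 13 in the other, which the study's design text describes as a gain-of-function form. SIK3 is a kinase that regulates sleep need, and the synapsin promoter (hSyn) is active in neurons, so the vector libraries model neuronal overexpression. They served only as levels side by side. The duration of the sleep deprivation, the age of the mice and the number of mice behind each library are not given in the sources used here.

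Nuclei were kept where a barcode had 500 or more genes and under 5% of its UMIs from mitochondrial genes. That left 8938 of 9438 barcodes of the ad lib sleep library and 5599 of 5944 of the sleep deprivation library, with 53395228 and 48750621 UMIs. Neurons were the nuclei with 3 or more UMIs in sum of Slc17a7, Sv2b, Gad1 and Gad2, which encode a vesicular glutamate transporter, a synaptic vesicle protein of glutamatergic neurons and the enzymes of GABA synthesis. They numbered 4265 (47.7% of kept nuclei, exact binomial 95% interval 46.7 to 48.8) in ad lib sleep and 2913 (52.0%, 50.7 to 53.3) in sleep deprivation, leaving 4673 and 2686 other nuclei. Because the cut is a count, it moves with depth: 870 and 368 nuclei lay at exactly 3 marker UMIs, and 1199 and 679 lay at 2. Levels are the summed UMIs of a population in a library, scaled to a total of 1000000 (CPM). Each group is 1 library, so no test was possible, no p-value is given, and every interval covers counting error only. A gene is counted as differing when it was past a fold threshold of 25% higher in one library than in the other, among genes with a mean of 10 CPM or more over both libraries.

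Lost sleep changes the cortex of rodents in known ways. Neuronal activity genes and chaperones respond, glucocorticoids released by handling act on glucocorticoid-responsive genes such as Fkbp5 and Sgk1, and glucose use and its supply by glia and blood vessels vary with sleep and waking. The pathways described here are those beyond the classical stress, cholesterol and synaptic genes: fuel use, growth factor signalling, cytoskeleton, adhesion, and the making and handling of RNA and protein.

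The libraries differed in ways that touch every result. Median depth in neurons was 8246 UMIs in ad lib sleep, 12761 in sleep deprivation, 9408 with the wild-type vector and 10228 with the exon 13 deleted vector. In other nuclei it ran the opposite way, 2337 in ad lib sleep and 1623.5 in sleep deprivation, so that neurons held 72.8% of UMIs in the first library and 84.9% in the second. The mitochondrial share was 0.440% and 0.494% in neurons and 0.872% and 1.08% in other nuclei. Cortical layer markers were at like levels in neurons. The upper, middle and deep layer lists summed to 560, 680 and 1230 CPM in ad lib sleep and 539, 651 and 1297 in sleep deprivation. Interneuron type markers summed to 363 and 373 CPM. Other lists differed more: excitatory markers summed to 1250 and 1462 CPM, inhibitory to 1763 and 1537, and microglial to 237.5 and 183. The excitatory and inhibitory lists hold the markers that chose neurons. In glutamatergic-marker neurons, with more UMIs of Slc17a7 and Sv2b than of Gad1 and Gad2, the middle layer list summed to 708 and 628 CPM. Markers of striatal projection neurons, a cell type of the neighbouring striatum, summed to 139 CPM in ad lib sleep neurons, 220 in sleep deprivation, 116 with the wild-type vector and 257 with the exon 13 deleted vector, and 10 of 10 were higher in sleep deprivation than in ad lib sleep. Neurons with 3 or more UMIs of these markers were 2.84% of nuclei in ad lib sleep and 6.98% in sleep deprivation. Markers of choroid plexus and ependyma summed to 30.2 and 527 CPM in other nuclei, and 4 haemoglobin genes to 65.7 and 430 CPM. Between 9 and 14 barcodes were shared by any pair of libraries. No doublet caller was run.

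In neurons, 4751 of 10066 genes (47.2%) were higher after sleep deprivation by any amount and 5315 were lower. Of all 10066 genes, 735 (7.30%) were past the threshold higher and 925 (9.19%) were that much lower, with a median log2 ratio of -0.01. The wild-type vector library offers a yardstick for 2 libraries whose labels name no sleep deprivation, although it also carries a vector: against ad lib sleep, 1.53% of the same genes were past it higher and 3.46% lower. Against that vector library, the sleep deprivation library had 6.82% higher and 6.00% lower. The balance of higher and lower depended on scaling: higher genes made up 44.3% of those past the threshold in the main scaling, 62.8% under median-of-ratios scaling and 64.9% under TMM (a trimmed mean of ratios), where 1125 genes were higher and 609 lower. In all nuclei together, 756 of 10460 genes (7.23%) were higher and 1014 (9.69%) lower, with higher genes at 42.7% of those past the threshold, against 62.6% and 63.1% under these 2 scalings.

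**Figure D1:**
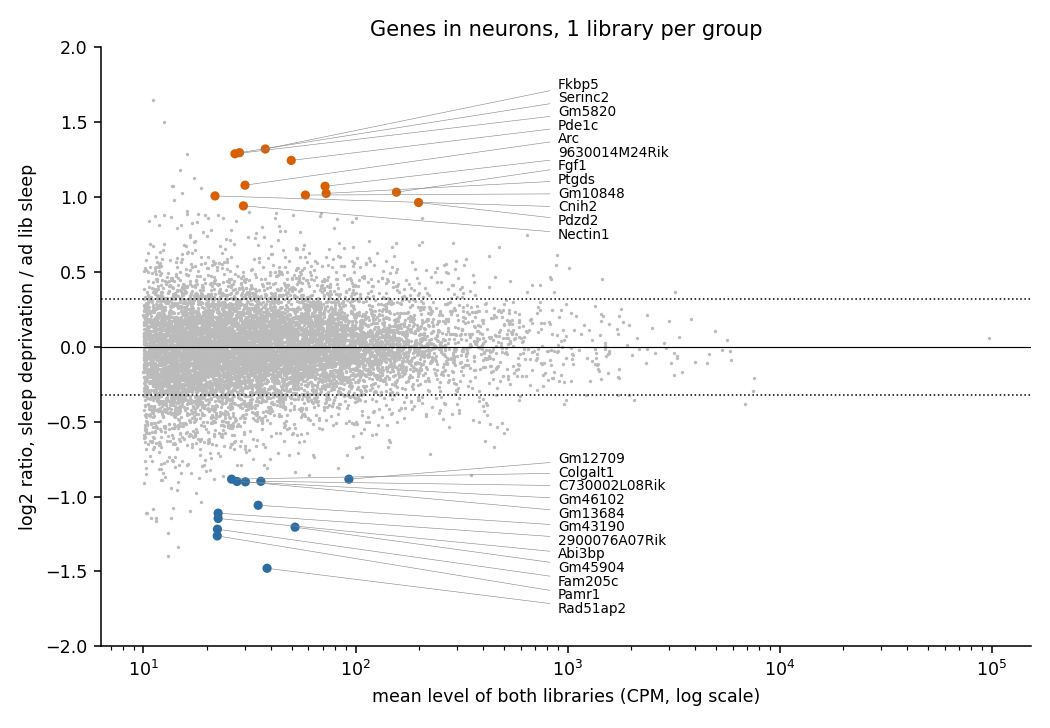
Each point is a gene in neurons, with its mean level in the 2 libraries on the x axis (CPM, log scale) and its log2 ratio of sleep deprivation to ad lib sleep on the y axis, and dotted lines mark the fold threshold of 25%. The 12 highest and 12 lowest genes with a mean of 20 CPM or more are labelled, from Fkbp5 at 2.50 to Rad51ap2 at 0.359.

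The highest ratios in neurons belonged to a glucocorticoid-responsive gene, a growth factor locus and several membrane proteins. Fkbp5 (ENSMUSG00000024222, chromosome 17, 28399094 to 28517527 in mm10), a co-chaperone of the glucocorticoid receptor, stood at 21.5 CPM in ad lib sleep, 53.6 in sleep deprivation, 33.5 with the wild-type vector and 37.5 with the exon 13 deleted vector, a ratio of 2.50 (95% counting interval 2.31 to 2.71). The sleep deprivation library was the highest of the 4, and the ad lib sleep library the lowest. Serinc2 (chromosome 4, 130253495 to 130279205), a membrane protein of the serine incorporator family, stood at 16.4, 40.4, 20.9 and 20.3 CPM in the same order, a ratio of 2.46 (2.24 to 2.70). Here both vector libraries stood above ad lib sleep and well below sleep deprivation. The ratio of Serinc2 was 2.51 in glutamatergic-marker neurons (more UMIs of Slc17a7 and Sv2b than of Gad1 and Gad2). Cnih2, an auxiliary subunit of AMPA receptors, stood at 14.4, 29.1, 18.8 and 22.7 CPM, and Arc, an immediate early gene, at 19.4, 40.9, 23.6 and 28.5.

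Fgf1 encodes a fibroblast growth factor that has no secretion signal and acts on FGF receptors. It stood at 102 CPM in ad lib sleep, 210 in sleep deprivation, 89.6 with the wild-type vector and 102 with the exon 13 deleted vector, a ratio of 2.05 (1.97 to 2.12). The sleep deprivation library alone was high. A pair of noncoding RNAs at the same locus, chosen by the ranking like Fgf1 itself, showed the same order: Gm5820 stood at 15.7, 38.3, 15.9 and 15.1 CPM and 9630014M24Rik at 46.3, 97.4, 51.0 and 52.8. They lie on chromosome 18 between 38601534 and 38971276, and Gm5820 overlaps Fgf1 on the opposite strand. Whether counting used strand is not given in the sources used here, so reads of Gm5820 and Fgf1 may not be fully told apart. In glutamatergic-marker neurons Fgf1 stood at 61.0 and 183 CPM, a ratio of 3.01, and in GABAergic-marker neurons at 312 and 335, a ratio of 1.07. The receptor Fgfr1 had a ratio of 1.30, whereas Fgf12 and Fgf14, members of the family that stay in the cell and bind sodium channels, had 0.862 and 0.960. Over 12 measured FGF ligands and receptors, 4 were higher and 8 lower, 2 and 2 past the threshold, with a median log2 ratio of -0.07.

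Pdzd2 (chromosome 15, 12359711 to 12739924), a protein with many PDZ domains, stood at 134 CPM in ad lib sleep, 262 in sleep deprivation, 155 with the wild-type vector and 165 with the exon 13 deleted vector, a ratio of 1.95 (1.89 to 2.02). Its ratio was 1.72 in glutamatergic-marker and 3.08 in GABAergic-marker neurons, and 1.61 in all neurons without those that held striatal markers. The GABAergic-marker group itself moved with the striatal markers: Rgs9, one of them, stood there at 97.0 CPM in ad lib sleep, 286 in sleep deprivation, 102 with the wild-type vector and 218 with the exon 13 deleted vector, and its part in ratios of that group was not tested. Nectin1 and Nectin3 encode partner adhesion proteins that bind each other across cell junctions, and their ratios pointed in opposite directions. Nectin1 stood at 20.3, 39.0, 26.1 and 26.6 CPM in the 4 libraries in the same order, and Nectin3 at 77.8, 43.1, 61.7 and 54.9. In glutamatergic-marker neurons the ratios were 2.13 for Nectin1 and 0.527 for Nectin3, and in GABAergic-marker neurons 1.03 and 0.917. Among the other leading genes, Gm10848 overlaps the calcium channel subunit gene Cacnb2 on the opposite strand and had a ratio of 2.02, and Ptgds, the prostaglandin D2 synthase, had 2.03. Ptgds RNA is abundant outside neurons, and its level in other nuclei was 317 CPM in ad lib sleep and 1213 in sleep deprivation.

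Some high ratios moved with the striatal markers. Pde1c, a calmodulin-dependent phosphodiesterase, stood at 29.5 CPM in ad lib sleep, 70.0 in sleep deprivation, 27.5 with the wild-type vector and 67.6 with the exon 13 deleted vector, high in the same 2 libraries as the striatal list. Its ratio was 2.37 in all neurons and 0.967 once neurons with 3 or more striatal marker UMIs were left out. Rgs9, which speeds the shutdown of G proteins and is itself one of the striatal markers, had 1.83, and 0.962 without those neurons. Its own counts helped to choose the neurons left out, so its second value is no separate evidence. Rarb, a retinoic acid receptor, had 1.48 and 0.939. For Gng7, a G protein subunit, the ratio was 1.71 in neurons and 1.13 in glutamatergic-marker neurons. The growth factor Tgfa had 1.54 in neurons and 0.955 in glutamatergic-marker neurons.

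The lowest ratios in neurons were those of Rad51ap2, extracellular proteins and a group of noncoding RNAs. Rad51ap2 (ENSMUSG00000086022, chromosome 12, 11456079 to 11462928) stood at 56.4 CPM in ad lib sleep, 20.2 in sleep deprivation, 39.8 with the wild-type vector and 37.1 with the exon 13 deleted vector, a ratio of 0.359 (0.331 to 0.389). The sleep deprivation library was the lowest and the ad lib sleep library the highest. Pamr1, a secreted protein with a peptidase-like domain, stood at 31.5 CPM in ad lib sleep and 13.1 in sleep deprivation, a ratio of 0.417. Abi3bp, an extracellular matrix protein, stood in the 4 libraries at 31.0, 14.01, 20.4 and 20.3. Fam205c had a ratio of 0.430, and Colgalt1, a galactosyltransferase that modifies collagen, 0.542. Colgalt1 also stood lower in each glial and vascular group described below, with ratios of 0.519 to 0.584. Noncoding genes made up the rest: Gm45904 (antisense to Cntnap4, 0.434), 2900076A07Rik (0.463), Gm43190 (0.480), Gm13684 (0.535), Gm46102 (0.536), C730002L08Rik (0.537) and Gm12709 (antisense to Sgip1, 0.542). C730002L08Rik overlaps Aldh1a1 and Colgalt1 overlaps Unc13a, each on the opposite strand. As with Gm5820 and Fgf1, reads of overlapping genes may not be fully told apart.

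Fuel genes were among the lists with the highest medians in neurons. Of 28 measured genes of glycolysis and lactate handling, 22 were higher and 6 lower after sleep deprivation, 7 were past the threshold higher and 0 lower, and the median log2 ratio was 0.20, against 7.30% of all genes past the threshold higher and a median of -0.01. Against the wild-type vector library the list's median was 0.16, and that library's own median against ad lib sleep was 0.03. Pfkfb3, whose product makes the allosteric activator of phosphofructokinase, stood at 13.8 CPM in ad lib sleep, 25.4 in sleep deprivation, 18.6 with the wild-type vector and 21.8 with the exon 13 deleted vector, a ratio of 1.84 (1.66 to 2.05). Gapdh, the dehydrogenase midway in glycolysis, stood at 119, 192, 137 and 122 CPM, a ratio of 1.62 (1.56 to 1.68). In both genes the sleep deprivation library was the highest of the 4. The aldolases Aldoc (34.6, 48.9, 35.6 and 32.8 CPM) and Aldoa (130, 171, 130 and 157 CPM) followed. Eno1 and Pkm had ratios of 1.30 and 1.27, and Tpi1 stood at 53.8, 67.3, 51.8 and 56.0 CPM, with Eno1 higher still in the exon 13 deleted vector library. The lowest members were Pdk1 at 0.813, a kinase that shuts down pyruvate dehydrogenase, and Pfkfb2 at 0.841.

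**Figure D2:**
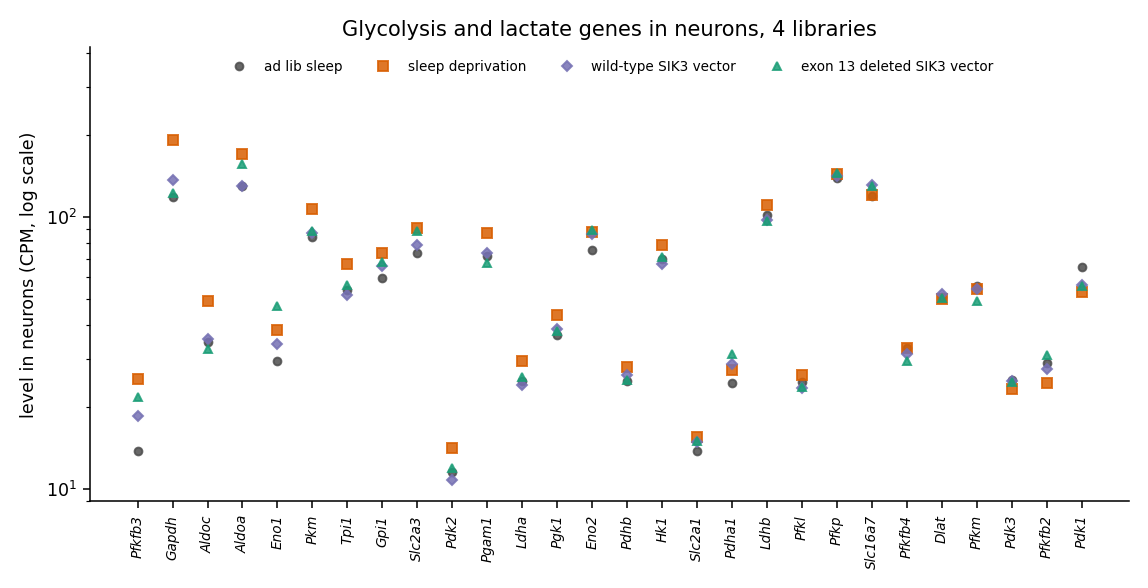
Levels in neurons (CPM, log scale) of the 28 measured glycolysis and lactate genes in each of the 4 libraries, ordered by the ratio of sleep deprivation to ad lib sleep. The sleep deprivation squares lie above the other 3 libraries for Pfkfb3, Gapdh and Aldoc and below them for Pdk1 and Pfkfb2.

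Since these genes were higher together, their promoters were searched for ACGTG on either strand, a core shared by sites of hypoxia-inducible factors and of other basic helix-loop-helix factors. Windows ran from 250 bases before to 50 after each RefSeq start (build GRCm38.p6). Of 28 measured genes 26 had a promoter in the table, and 15 of these (57.7%) held the letters, against 5886 of 27025 genes (21.8%) in the whole table. A gene with more starts has more windows. By window it was 19 of 42 (45.2%) against 6447 of 32851 (19.6%). The whole table also holds genes not measured in neurons, and base composition was not matched. Of the 7 genes past the threshold, 5 held the letters. The 250 bases before the start are shown for the second Pfkfb3 start (chr2:11502091-11502340, minus strand), where the letters form the palindrome CACGTG and the window lies next to the leading gene of the list, and for the second Aldoa start (chr7:126799255-126799504, minus strand). Capitals mark the match.
Pfkfb3 start 2: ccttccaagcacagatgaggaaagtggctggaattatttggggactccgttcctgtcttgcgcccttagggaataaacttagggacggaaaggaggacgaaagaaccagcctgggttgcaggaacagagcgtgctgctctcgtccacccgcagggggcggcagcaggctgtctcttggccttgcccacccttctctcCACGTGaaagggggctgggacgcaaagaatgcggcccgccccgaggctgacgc
Aldoa start 2: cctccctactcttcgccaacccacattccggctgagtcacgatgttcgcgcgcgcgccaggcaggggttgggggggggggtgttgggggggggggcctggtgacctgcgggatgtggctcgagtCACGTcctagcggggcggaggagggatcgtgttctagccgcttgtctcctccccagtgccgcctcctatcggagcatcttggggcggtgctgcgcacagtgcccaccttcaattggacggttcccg

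One match each of 4 other starts is shown with up to 10 bases on each side, to compare their surroundings: the first Pfkfb3 start (chr2:11553975-11553999, minus strand), the second Pkm start (chr9:59657142-59657166, plus strand), Aldoc (chr11:78323090-78323114, plus strand) and Gapdh (chr6:125165724-125165741, minus strand). The first pair lies before the start, and the matches of Aldoc and Gapdh lie after it. The second Pkm start held a further match 9 bases after the start, which is not shown. The window of the third Aldoa start overlaps that of the second, and its match is the same site shown above. Tpi1 and Eno1 held none in these windows. The matches are a description of letters, and no factor's binding was measured.
Pfkfb3 start 1: ccgcgccgtgACGTGccaagctgtg
Pkm start 2: ccgatccggtCACGTccgcgccgca
Aldoc start 1: cccagggagtCACGTagctctgcgg
Gapdh start 1: tttacgggtgCACGTagc

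Other fuel lists stood nearer the background. Of 19 measured hypoxia genes, 5 were past the threshold higher and 0 lower, with a median log2 ratio of 0.12. They were Pfkfb3, the carbonic anhydrase Car12 (11.2, 21.1, 9.05 and 12.8 CPM in the 4 libraries), P4ha2, and the oxygen-sensing hydroxylases Egln1 and Egln2. Without the neurons that held striatal markers the ratio was 1.26 for Car12 and 1.60 for Pfkfb3. The median of the hypoxia list ranged from 0.0254, with a mean of 20 CPM or more required, to 0.338 over the alternatives. Glycogen and pentose phosphate genes went the other way, with 1 of 18 higher and 5 lower past the threshold and a median of -0.10. Rpe of the pentose phosphate pathway had a ratio of 0.749, and Pgm2l1 had 1.26. Genes of the citric acid cycle and glutamine metabolism had a median of 0.05, with 1 of 32 past the threshold each way, Glul (glutamine synthetase) at 1.32 and the cytosolic aconitase Aco1 at 0.716. AMPK and energy sensing genes had a median of 0.00 (16 measured, 2 higher and 1 lower past the threshold), with the AMPK subunit gene Prkag2 at 1.42. Mitochondrial dynamics and import genes had 0.06 (36 measured, 1 and 0 past the threshold), fatty acid oxidation and lipid droplets 0.01 (15 measured, none past it), and fatty acid synthesis and desaturation -0.06 (16 measured, 0 and 1), with Acsl6 at 0.767. For phospholipid and sphingolipid metabolism 28 of 43 were lower, 3 and 3 were past the threshold, and the median was -0.08, while Serinc2 was its highest member and Lpcat4 its lowest at 0.671.

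Neurotrophin and GDNF family genes had the highest median of all lists in neurons, 0.24, with 11 of 14 higher, 4 past the threshold higher and 1 lower. Across the alternatives it ran from 0.0845 to 0.303. Members of the sortilin family, which sort neurotrophins and their receptors, led it. Sorcs3 stood at 265 CPM in ad lib sleep, 399 in sleep deprivation, 243 with the wild-type vector and 311 with the exon 13 deleted vector, a ratio of 1.502 (1.47 to 1.54), and Sorcs2 at 60.6, 88.3, 57.7 and 86.5. Sorcs2 was thus high in the same libraries as the striatal markers. Its ratio was 1.46 in all neurons and 1.34 without striatal-marker neurons, where Sorcs3 had 1.47. Bdnf, the ligand, stood at 20.03, 25.8, 20.5 and 35.6 CPM, so that the exon 13 deleted vector library was the highest. Its receptor Ntrk2 had a ratio of 1.04 and Ntrk3 had 1.17. In other nuclei Sorcs3 had a ratio of 0.741.

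Insulin and IGF signalling genes had a median of 0.11 (22 measured, 5 and 2 past the threshold). Igfbp4, which binds insulin-like growth factors, had a ratio of 1.74, the insulin receptor adaptor Grb14 1.58, Irs2 1.38, and Grb10, an adaptor that restrains the receptor, 0.699. ERBB receptors and neuregulins had a median of -0.01 (9 measured, 1 and 1), with Nrg4 at 0.532 and Tgfa as above. For VEGF, PDGF and angiopoietin signalling it was 0.10 (12 measured, 2 and 2), with Angpt1 at 0.637 and the semaphorin and VEGF co-receptor Nrp1 at 1.42. In TGF-beta and BMP signalling it was -0.11 (22 measured, 2 and 3) but 0.0091 with nuclei weighted alike and 0.1135 with nuclei thinned to 2000 UMIs, with Smad3 at 1.43 and the follistatin-like Fstl4 at 1.39. Wnt genes had 0.01 (16 measured, 4 and 1), with the ligand Wnt9a at 0.578 and the secreted modulator Dkk3 at 1.47. Hedgehog signalling had 0.07 over only 5 measured genes, with 0 and 1 past the threshold, and its co-receptor Cdon at 0.797.

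Of 12 measured Notch genes, 3 were past the threshold higher and 0 lower, with a median of 0.00. Maml3, a coactivator of the Notch transcription complex, stood at 147 CPM in ad lib sleep, 267 in sleep deprivation, 158 with the wild-type vector and 191 with the exon 13 deleted vector, a ratio of 1.81 (1.76 to 1.87). It had like ratios in glutamatergic-marker neurons (1.81) and GABAergic-marker neurons (1.86) and 1.10 in astrocyte-marker nuclei. Genes of MAP kinase cascades had a median of -0.01 (48 measured, 4 and 1), with the p38 kinase gene Mapk11 at 25.3, 41.9, 25.8 and 26.8 CPM. The mTOR and amino acid sensing list had 0.04 (26 measured, 2 and 0), with the arginine sensor Castor2 at 1.42. Thyroid, retinoid and orphan nuclear receptor genes had -0.01 (19 measured, 3 and 4), with Klf9, a thyroid and glucocorticoid target, at 1.47. NF-kappaB, TNF and Toll-like signalling had 0.02 (24 measured, 1 and 1), with Irak1 at 0.670 and Traf3 at 1.35. Complement and antigen presentation had -0.05 over 5 measured genes, none past the threshold. Blood-brain barrier and vascular tone had -0.01 (16 measured, 2 and 3), with nitric oxide synthase Nos1 at 1.48. Endocannabinoid genes had 0.12, with 8 of 9 higher, 0 past the threshold higher and 1 lower. The last was Daglb at 0.730, a synthetic enzyme, and Mgll, which breaks the lipid down, had 1.23.

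Protein kinase C genes and targets had a median of 0.18, with 11 of 13 higher, 4 past the threshold higher and 2 lower. Neurogranin (Nrgn), a postsynaptic calmodulin-binding substrate, stood at 337 CPM in ad lib sleep, 512 in sleep deprivation, 353 with the wild-type vector and 355 with the exon 13 deleted vector. Prkcb, the beta isoform of the kinase, stood at 751, 969, 804 and 779 CPM. In both genes the sleep deprivation library was the highest. Phosphoinositide and diacylglycerol genes had a median of 0.05 (36 measured, 2 and 2), led by Dgkb, a diacylglycerol kinase, at 480, 805, 546 and 667 CPM. Its ratio was 1.498 in glutamatergic-marker and 2.40 in GABAergic-marker neurons, where it stood at 512, 1229, 568 and 953 CPM, the order of Rgs9 in that group, and 1.51 in all neurons without those that held striatal markers. Heterotrimeric G proteins and RGS had 0.13, with 27 of 39 higher and 6 and 0 past the threshold, and 0.098 once striatal-marker neurons were left out. Ion pumps and chloride cotransporters had 0.02 (43 measured, 3 and 2), with the calcium pumps Atp2b1 at 1.12 and Atp2b2 at 1.20.

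**Figure D3:**
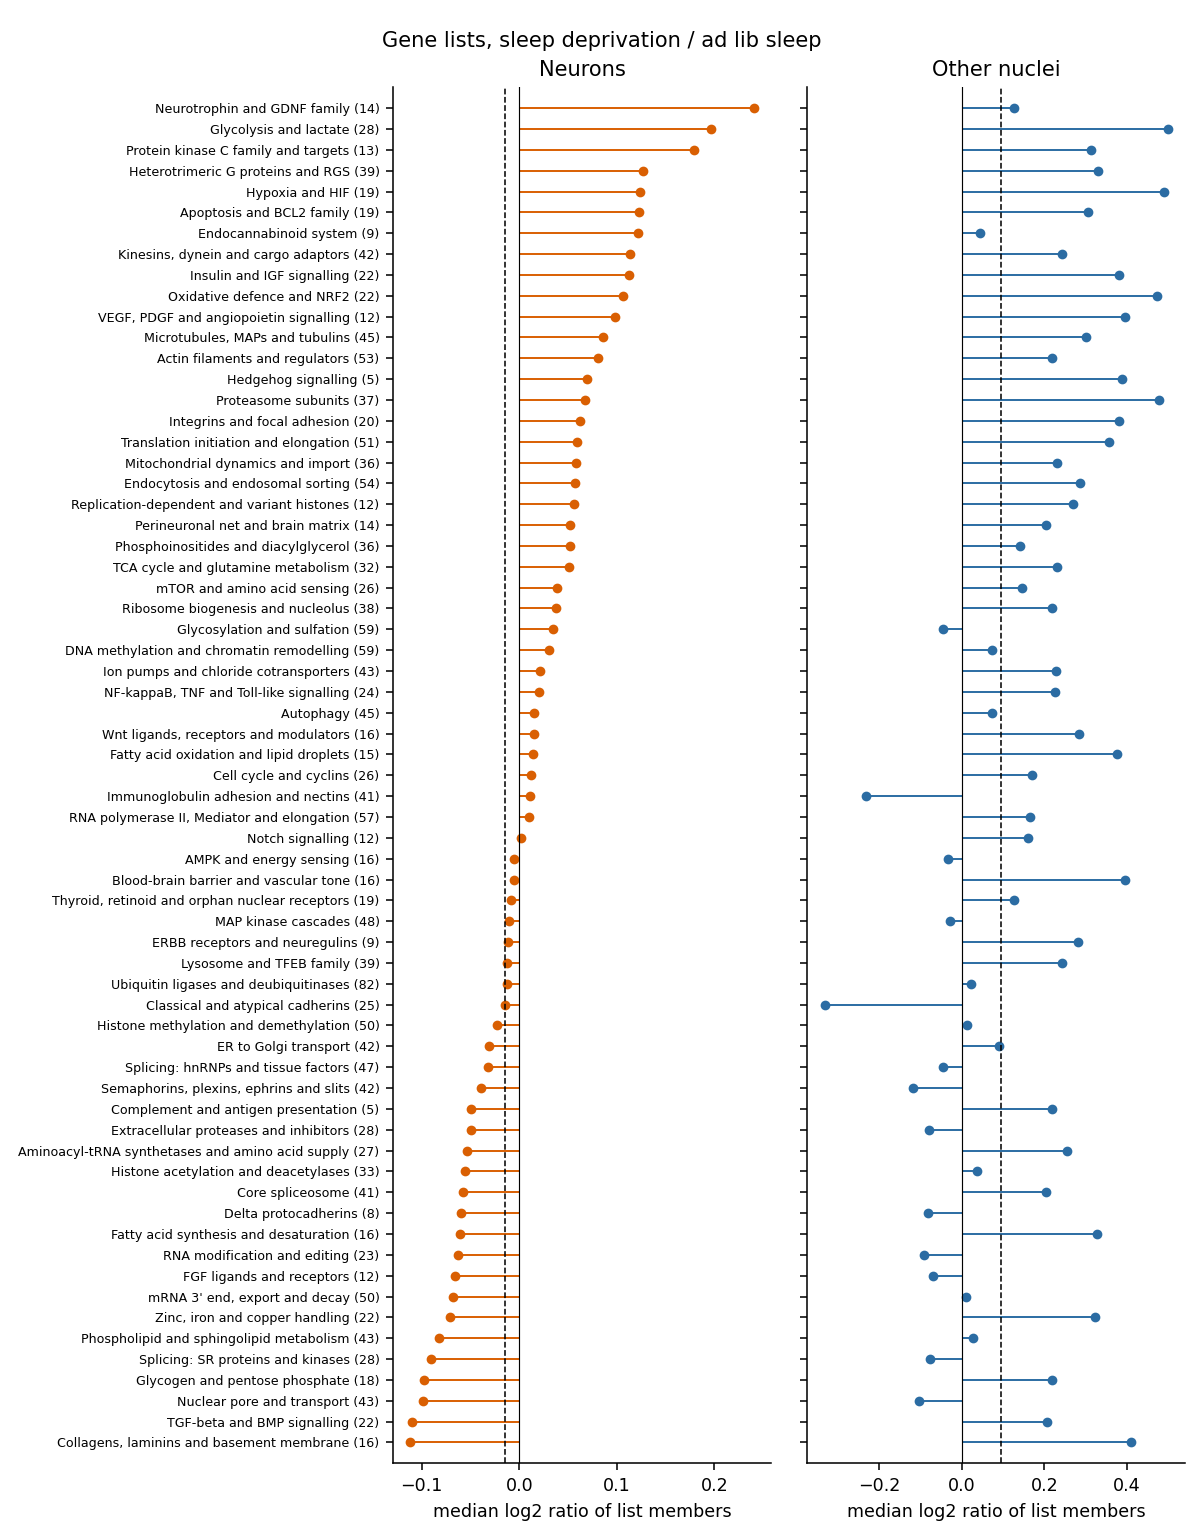
Median log2 ratio of sleep deprivation to ad lib sleep over the measured members of each of the 65 gene lists, in neurons (left, number of members in brackets) and in other nuclei (right), with a dashed line at the median of all genes. In neurons medians ran from -0.11 to 0.24 around a median of all genes of -0.01, and in other nuclei they ran from -0.33 to 0.50 around 0.10.

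Lists of the cytoskeleton and of transport had medians from -0.03 to 0.11 in neurons, where 47.2% of all genes were higher and 7.30% past the threshold higher. Of 42 measured motor and adaptor genes of axonal transport, 31 were higher and 11 lower, 4 and 1 past the threshold, with a median of 0.11 that ran from 0.0807 to 0.177 over the alternatives. Kif1a, the motor of synaptic vesicle precursors, stood at 244 CPM in ad lib sleep, 324 in sleep deprivation, 293 with the wild-type vector and 287 with the exon 13 deleted vector. Microtubule genes had 0.09 (45 measured, 2 and 1), and their lowest member was doublecortin (Dcx), a marker of immature neurons, at 106, 60.3, 83.5 and 79.0 CPM. Actin genes had 0.08 (53 measured, 10 and 3), the higher ones being Actb, Fscn1, Sptb, Cfl1, Tpm1, Arpc2, Actn2, Myh9, Fmnl1 and Daam2. Endocytosis and endosomal sorting had 0.06 (54 measured, 2 and 0) and transport from the endoplasmic reticulum to the Golgi -0.03 (42 measured, none past the threshold).

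Adhesion and matrix genes differed in both directions. Classical and atypical cadherins had a median of -0.02 (25 measured, 3 and 1), with Cdh22 at 21.9, 40.8, 28.1 and 28.4 CPM and Cdh4 at 57.7, 99.9, 64.5 and 63.8. In both, the sleep deprivation library was the highest, and both vector libraries also stood above ad lib sleep. Delta protocadherins had -0.06 (8 measured, 1 and 0), with Pcdh1 at 1.34 and Pcdh10 at 0.806. Immunoglobulin adhesion genes with the nectins had 0.01 (41 measured, 4 and 2). Semaphorins, plexins, ephrins and slits had -0.04 (42 measured, 4 and 4), with the guidance ligand Slit2 at 174, 110, 160 and 171 CPM. Collagens, laminins and basement membrane genes were among the lists with the lowest medians, at -0.11 (16 measured, 3 and 5), with Lama4 at 0.557, Lama2 at 0.694 (1.0015 with nuclei thinned to 2000 UMIs) and Col25a1 at 1.32. Extracellular proteases and inhibitors had -0.05 (28 measured, 3 and 7), with the procollagen protease Adamts2 at 1.85. Integrins and focal adhesion had 0.06 (20 measured, 2 and 4), with Itgb8 at 0.593 and Itgbl1 at 0.667. Perineuronal net and brain matrix genes had 0.05 (14 measured, 3 and 1), with tenascin-R (Tnr) at 381, 527, 446 and 444 CPM and Matn2 at 1.51. Glycosylation and sulfation had 0.03 (59 measured, 7 and 5), with Chst8 at 1.68, Galnt9 at 1.62 and Galntl6 at 0.798.

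Lists of RNA handling had medians from -0.10 to 0.01 in neurons. Across all genes in neurons 5315 of 10066 were lower, and 9.19% were past the threshold lower. The counts past the threshold lower in these lists lay near or under that share. Of 43 measured nuclear pore and transport genes, 33 were lower and 10 higher, 0 past the threshold higher and 2 lower (Nup88 at 0.756 and Nup54 at 0.781), with a median of -0.10 that ran from -0.12 to -0.0352. SR proteins and their kinases had -0.09, with 20 of 28 lower and 0 and 2 past the threshold, and a range of -0.101 to -0.0264. Srsf2 had a ratio of 0.767 and Luc7l2 0.783. In the core spliceosome (41 measured, 2 and 4, median -0.06) Snrnp70, a U1 particle protein, stood at 552 CPM in ad lib sleep, 380 in sleep deprivation, 511 with the wild-type vector and 494 with the exon 13 deleted vector. Tissue splicing factors and hnRNPs had -0.03 (47 measured, 1 and 2), and Rbfox1 and Celf2 had ratios of 1.03 and 0.979. Genes of mRNA ends, export and decay had -0.07, with 32 of 50 lower and 1 and 5 past the threshold. Btg2, a deadenylation cofactor and an activity-regulated gene, was its lowest member at 18.9, 7.17, 11.2 and 13.6 CPM. RNA modification and editing had -0.06 (23 measured, 1 and 0), with the cytosine methyltransferase Nsun2 at 1.32. RNA polymerase II, Mediator and elongation genes had 0.01 (57 measured, 3 and 3), with Polr2a at 0.7501.

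Chromatin lists lay close to the median of all genes. DNA methylation and chromatin remodelling had 0.03 (59 measured, 5 and 2), with the BAF subunit genes Dpf3 at 1.61 and Dpf1 at 1.47. Histone acetylation had -0.06 (33 measured, 2 and 0). Histone methylation had -0.02 (50 measured, none past the threshold), and replication-dependent and variant histones had 0.06 (12 measured, 0 and 1), with the linker histone Hist1h1c at 0.585. Cell cycle genes had 0.01 (26 measured, 4 and 0), with cyclin D3 (Ccnd3) at 6.504, 18.4, 10.1 and 12.8 CPM and Cdk5r2, an activator of the neuronal kinase CDK5, at 19.1, 32.9, 19.1 and 18.4. Apoptosis genes had 0.12 (19 measured, 3 and 1), with Bcl2 at 1.33.

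Protein synthesis and turnover showed small differences in neurons. Translation initiation and elongation had 0.06 (51 measured, 6 and 2), ribosome biogenesis 0.04 (38 measured, 1 and 0), and tRNA synthetases with amino acid supply -0.05 (27 measured, 0 and 1), with the folate enzyme Mthfd1l at 0.719. Proteasome subunits had 0.07, with 26 of 37 higher and 3 and 0 past the threshold, against 47.2% of all genes higher and 7.30% past it higher. Psmc5 had 1.34 and Nfe2l1, which drives proteasome genes, had 1.29. Ubiquitin ligases and deubiquitinases had -0.01 (82 measured, 4 and 2), with Rnf144b at 0.685 and Ube3a at 0.867. Autophagy had 0.02 (45 measured, 0 and 1), and lysosomal genes -0.01 (39 measured, 0 and 3), with the tripeptidase Tpp1 at 0.760. Oxidative defence had 0.11 (22 measured, 2 and 1), with Gpx1 at 1.44 and Prdx4 at 0.706. Zinc, iron and copper handling had -0.07 (22 measured, 5 and 4), with metallothionein Mt1 at 1.54, ferritin heavy chain Fth1 at 1.35 and the zinc importer Slc39a6 at 0.663.

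In other nuclei far more genes differed: 3428 of 11370 (30.1%) were past the threshold higher and 1890 (16.6%) lower, with a median log2 ratio of 0.10. The wild-type vector library against ad lib sleep had 7.58% and 5.88%. Higher genes made up 64.5% of those past the threshold in the main scaling, 51.9% under median-of-ratios scaling and 55.3% under TMM. This population is a mixture. Summed marker levels in ad lib sleep and sleep deprivation were 2119 and 3028 CPM for astrocytes, 1993 and 3033 for oligodendrocytes and 548 and 1092 for endothelial cells, with 7 of 8, 8 of 8 and 6 of 6 markers higher. Summed neuronal markers in it went both ways, with 897 and 1404 CPM for excitatory markers (3 of 7 higher), 1834 and 1456 for inhibitory, 650 and 813 for interneuron types (5 of 7 higher), 634 and 481 for middle layer (0 of 5 higher) and 1011 and 747 for deep layer markers. The rise of the excitatory sum lay in 1 member, Nrgn, at 468 and 985.5 CPM. The excitatory list also holds Slc17a7 and Sv2b, and the inhibitory list Gad1 and Gad2, whose counts set this population apart. Nuclei without a clear glial or vascular marker set numbered 2278 with a median of 3008 UMIs in ad lib sleep and 1527 with a median of 979 in sleep deprivation. Fewer cells of a type and less RNA per cell cannot be told apart in these sums.

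Blood and choroid plexus RNA led the ranking. Transthyretin (Ttr), a choroid plexus product, stood at 17.8 CPM in ad lib sleep, 497 in sleep deprivation, 2.42 with the wild-type vector and 0 UMIs with the exon 13 deleted vector, and 9 nuclei with 10 or more Ttr UMIs held 3061 of the 4961 Ttr UMIs of the sleep deprivation library. The haemoglobin genes Hba-a1, Hba-a2 and Hbb-bs had ratios of 7.18, 6.68 and 5.94 and were also higher in neurons (2.62, 2.71 and 2.27). After them came Hif3a, an inhibitory member of the HIF family, at 11.1, 49.9, 25.9 and 32.4 CPM (ratio 4.49, interval 3.72 to 5.44). Ccnd3 stood at 36.7, 155, 97.1 and 91.8 CPM (4.21, 3.797 to 4.68), and both vector libraries lay between the other two. Zfp366 had 3.89 and the noncoding Gm44866 had 4.25. The lowest genes were mainly noncoding or neuronal: Gm15680 (0.201), Nell1os (0.233), Zfp804b (0.280), A330008L17Rik (0.287), Vwc2l (0.293), Gm45904 (0.298), Gm43948 (0.304) and 4930590L20Rik (0.306). Gm15680 stood at 120, 24.1, 97.8 and 104 CPM, and the sleep deprivation library alone was low. Gm15680 and A330008L17Rik overlap each other on opposite strands, and Gm15680 overlaps the cadherin gene Cdh8 on the same strand. Reads of these genes may not be fully told apart, so they are not independent entries.

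The 4 highest list medians in other nuclei were of metabolic and housekeeping lists, read against 30.1% of all genes past the threshold higher. Glycolysis had 0.50 (30 measured, 19 higher and 1 lower past the threshold), hypoxia 0.49 (24 measured, 14 and 1), proteasome subunits 0.48 (39 measured, 26 and 0), and oxidative defence 0.47 (30 measured, 19 and 3). With nuclei thinned to 2000 UMIs glycolysis had 0.28, proteasome subunits 0.14 and oxidative defence 0.19, and the median of all genes was 0.04. Hypoxia was lowest at 0.26, with each nucleus scaled to the same total. Next came collagens and laminins at 0.41 (22 measured, 12 and 6), VEGF and PDGF signalling at 0.40 (17 measured, 10 and 2) and the blood-brain barrier at 0.39 (28 measured, 16 and 2), which turned to -0.4454, -0.192 and -0.08 with each nucleus scaled to the same total. Gapdh stood at 218 CPM in ad lib sleep, 501 in sleep deprivation, 266 with the wild-type vector and 229 with the exon 13 deleted vector, and Psmc5 at 57.7, 122, 59.3 and 71.5. Zinc, iron and copper genes had 0.32 (27 measured, 14 and 2), with the metallothionein Mt1 at 153, 351, 196 and 252 CPM, Mt2 at 2.44, Mt3 at 2.25 and Fth1 at 2.03. Insulin and IGF signalling had 0.38 (24 measured, 14 and 2), with Igf2 at 4.31, Igfbp2 at 2.23 (0.728 with nuclei thinned to 2000 UMIs) and Igf1r at 1.93, whereas FGF ligands and receptors had -0.07 (12 measured, 3 and 4). Choroid plexus and leptomeninges are known sources of Igf2, and the part of the choroid plexus markers, at 30.2 and 527 CPM, in its ratio was not tested. Lists of neuronal adhesion genes were lowest, with classical cadherins at -0.33 (27 measured, 7 and 14), immunoglobulin adhesion at -0.23 (42 measured, 4 and 19) and semaphorins at -0.12 (49 measured, 8 and 18). Cdh9, Cntn6, Cntnap5a and Unc5d had ratios of 0.453, 0.436, 0.445 and 0.409.

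To look within cell types, other nuclei with 5 or more UMIs of one marker list and at least 2 times as many as of any other were summed apart. They were 848 and 443 astrocyte-marker nuclei (medians of 2957 and 3314 UMIs), 847 and 362 oligodendrocyte-marker nuclei (1813 and 2753.5) and 308 and 185 endothelial-marker nuclei (1399 and 2110). Near the threshold lay 247 and 138 nuclei with 4 or 5 astrocyte marker UMIs, of which those with 4 were outside the group. Of genes with a mean of 20 CPM or more, 22.8% were past the threshold higher and 19.4% lower in astrocyte-marker nuclei, 16.7% and 21.4% in oligodendrocyte-marker nuclei, and 24.4% and 26.5% in endothelial-marker nuclei. Genes named here beyond the ranked ones were chosen after their values were seen.

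Fkbp5 was higher in each of them, at 17.9 and 98.3 CPM in astrocyte-marker nuclei, 25.4 and 134 in oligodendrocyte-marker nuclei and 5.75 and 101 in endothelial-marker nuclei. The last pair rests on 3 UMIs in ad lib sleep, a ratio of 17.5 with a counting interval of 5.69 to 87.5. Ccnd3 had ratios of 3.42, 2.39 and 4.21 in the same order. In astrocyte-marker nuclei Hif3a stood at 39.3 and 153 CPM, the matricellular protein gene Thbs4 at 20.3 and 95.4, the exchanger Slc24a4 at 17.6 and 83.5, Nxn (nucleoredoxin) at 87.7 and 300 and glutamine synthetase Glul at 317 and 603. For all of these genes both vector libraries lay between ad lib sleep and sleep deprivation, with Hif3a at 86.6 and 114 CPM. They were not particular to astrocyte-marker nuclei. In oligodendrocyte-marker nuclei Hif3a had a ratio of 9.24 and Thbs4 4.73, on 7 and 10 UMIs in ad lib sleep. Nxn had 2.45 there, Glul 1.62 and Slc24a4 0.469. Ptgds stood at 233 and 1864 CPM in astrocyte-marker nuclei, 524 and 913 in oligodendrocyte-marker nuclei and 289 and 1288 in endothelial-marker nuclei. With the wild-type and exon 13 deleted vectors it stood at 180 and 228, 692 and 734, and 248 and 185 CPM in the same order. The part of RNA from outside these nuclei, such as that of the choroid plexus, in these ratios was not tested. In oligodendrocyte-marker nuclei Zbtb16, a transcriptional repressor, had a ratio of 5.75, the small GTPase gene Rhoj 5.43, the protease gene Htra1 4.53, and Sgk1, a glucocorticoid-responsive kinase gene, 3.81 (73.2 and 279 CPM), and the noncoding Gm44866 stood at 90.1 and 299 CPM. Zbtb16 also had 5.39 in endothelial-marker and 2.04 in astrocyte-marker nuclei. Htra1 had 1.03 and 2.34 in the same order, and Rhoj 1.49 and 2.10. Sgk1 had 0.995 in endothelial-marker nuclei, 0.964 in astrocyte-marker nuclei and 1.05 in all neurons. In oligodendrocyte-marker nuclei the vector libraries also stood above ad lib sleep for these genes. With the wild-type and exon 13 deleted vectors Zbtb16 stood at 268 and 368 CPM, against 55.3 in ad lib sleep and 318 in sleep deprivation. Sgk1 stood at 214 and 271 with the vectors, Rhoj at 39.9 and 56.4, Htra1 at 134 and 120, and Gm44866 at 177 and 242. Ad lib sleep and sleep deprivation levels were 13.4 and 73.0 CPM for Rhoj and 39.8 and 181 for Htra1. In endothelial-marker nuclei Zfp366 stood at 239 and 560 CPM, the interleukin-1 receptor gene Il1r1 at 59.4 and 210, Pglyrp1 at 70.9 and 256, and Cdkn1a, a cell cycle inhibitor, at 13.4 and 117. With the wild-type and exon 13 deleted vectors Zfp366 stood at 390 and 448 CPM and Il1r1 at 186 and 114. Pglyrp1 stood at 139 and 175 with the vectors, and Cdkn1a at 10.7 and 22.7. Cdkn1a also had ratios of 8.38 in astrocyte-marker and 4.03 in oligodendrocyte-marker nuclei, on 5 and 9 UMIs in ad lib sleep. The glucose transporter of the blood-brain barrier, Slc2a1, stood at 758 CPM in ad lib sleep, 1174 in sleep deprivation, 1174 with the wild-type vector and 1202 with the exon 13 deleted vector, so only the ad lib sleep library was low.

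Across all genes, 7.87% were past the threshold higher and 9.64% lower in glutamatergic-marker neurons, and 10.4% and 16.7% in GABAergic-marker neurons. The glycolysis list had medians of 0.26 in glutamatergic-marker neurons, 0.10 in GABAergic-marker neurons, 0.35 in astrocyte-marker nuclei, 0.18 in oligodendrocyte-marker nuclei and -0.07 in endothelial-marker nuclei. Gapdh had ratios of 1.61, 1.58, 1.80, 1.48 and 1.19 in the same order. RNA from outside a nucleus could add to such values, and neuronal Nrgn serves as a gauge: its ratio was 1.52 in neurons and also 1.64 in astrocyte-marker, 1.56 in oligodendrocyte-marker and 1.26 in endothelial-marker nuclei. Its part in the Gapdh ratios was not tested.

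**Figure D4:**
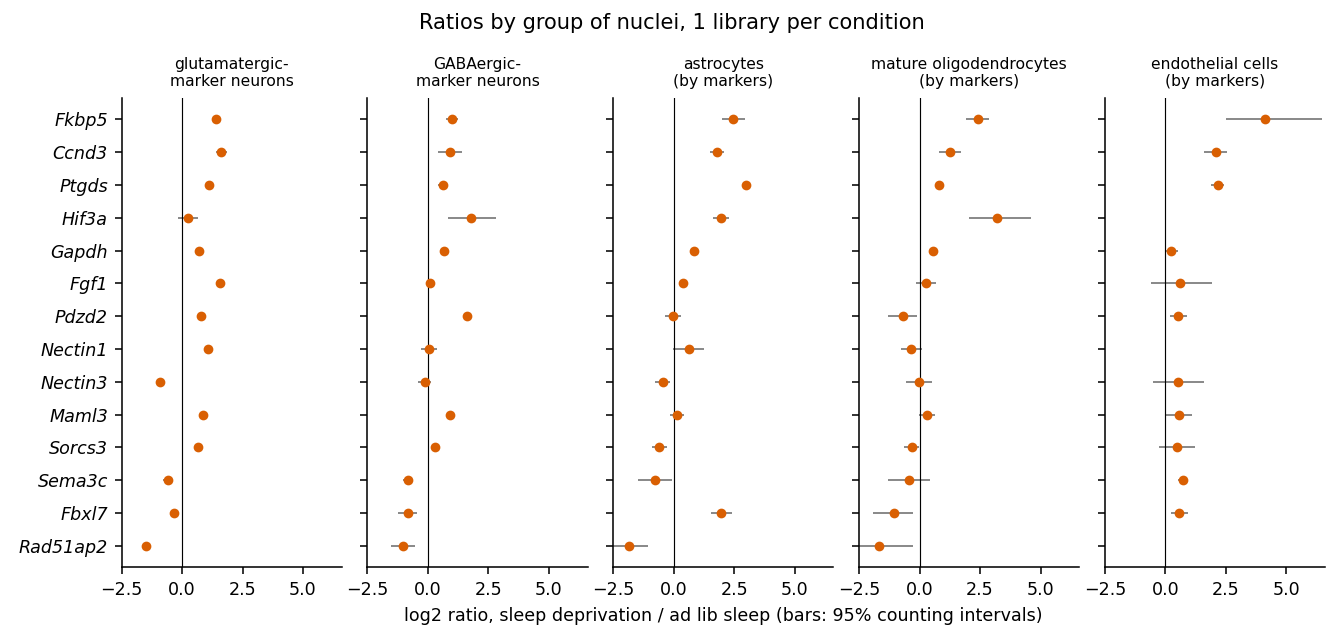
Log2 ratio of sleep deprivation to ad lib sleep of 14 genes in 5 groups of nuclei, with 95% counting intervals, for groups with 20 or more UMIs of the gene. Fkbp5 and Ccnd3 lie right of 0 in each group, Fgf1 and Nectin1 lie far right only in glutamatergic-marker neurons among the 2 neuron groups, and Sema3c lies left of 0 in all groups but the endothelial-marker nuclei.

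The ratios of neurons and other nuclei were set side by side. Of 6969 genes with 20 CPM or more in both, 324 were past the threshold higher in both and 311 lower in both, while 34 were past it in opposite directions, 18 of them higher in neurons. Both populations come from the same 2 libraries and share their free RNA. Sema3c, a secreted guidance cue, stood at 25.6 and 16.3 CPM in neurons (a ratio of 0.637, but 1.17 with nuclei thinned to 2000 UMIs) and at 50.8 and 107 in other nuclei, where endothelial-marker nuclei held 588 and 971. Fbxl7 stood at 24.9 and 18.8 CPM in neurons and 55.9 and 113 in other nuclei, and at 23.04 and 89.8 in astrocyte-marker nuclei.

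Gene type and length moved with the ratios. In neurons 920 noncoding genes had a median log2 ratio of -0.18 with 31.4% past the threshold lower, against 6.95% of 9127 protein-coding genes. Antisense genes made up 517 of them, with a median of -0.20 and 33.3% lower. In other nuclei 55.4% of 956 noncoding genes and 13.1% of protein-coding genes were that much lower. Against the wild-type vector library the noncoding median in neurons was -0.12. Antisense genes held 3.42% of neuronal UMIs in ad lib sleep, 2.97% in sleep deprivation, 3.29% with the wild-type vector and 3.51% with the exon 13 deleted vector, so the sleep deprivation library alone was low. By length, the shortest of 5 length classes of equal gene number in other nuclei had a median of 0.32, with 51.3% past the threshold higher, and the longest -0.05. In neurons the shortest had 0.04 and the longest -0.01. The glycolysis, hypoxia, proteasome and oxidative defence lists had median gene lengths of 13.3 to 38.0 kb, and the cadherin, immunoglobulin adhesion and semaphorin lists 154 to 305 kb. The part of length in the medians of the lists was not tested.

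**Figure D5:**
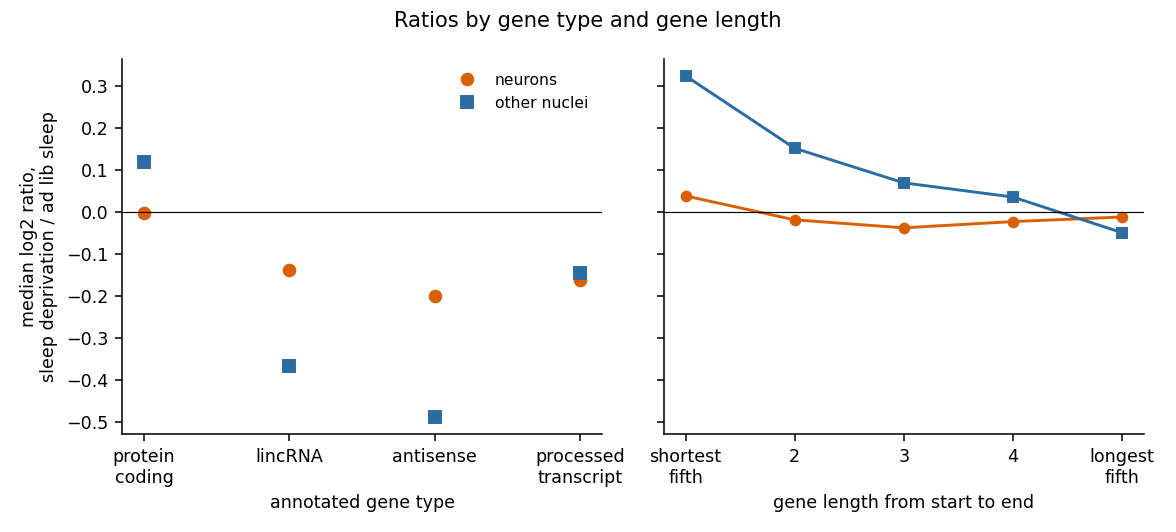
Median log2 ratio of sleep deprivation to ad lib sleep by annotated gene type (left) and by gene length in 5 classes of equal gene number (right), for neurons (circles) and other nuclei (squares). Antisense genes lie at -0.20 in neurons and -0.49 in other nuclei, and the trend with length is seen in other nuclei.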

How the data were processed

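Gene by nucleus tables of raw UMI counts were used as deposited by the authors, with no normalization. Per the submitters' processing notes they were made with Cell Ranger 6.1.2 and mm10. Nuclei had been isolated from frozen sections of the primary motor area with a Singulator and a sucrose gradient and captured with 10x Chromium 3′ chemistry, per the labels' protocols. Whether counting used strand, and whether mice were pooled, is not given in the sources used here.

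Counts were summed over the kept nuclei of a library and divided by their total (CPM). Log2 ratios carry a pseudocount of 1 CPM. Intervals of levels are exact Poisson, of ratios exact conditional and of shares Clopper-Pearson, all at 95%. With 1 library per group there is no test. The 65 gene lists hold 2563 genes, of which 2561 are in the files, and 32235 of 32286 features matched the GENCODE vM21 annotation. The members, lists and markers were chosen with earlier results of these data known, so no list is independent evidence of its direction.

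Named genes are the 12 highest and 12 lowest ratios in neurons (mean of 20 CPM or more and 200 UMIs or more), 8 and 8 in other nuclei (30 CPM), 5 and 5 in all nuclei, 6 that differ in direction between neurons and other nuclei, and up to 4 per list. Mitochondrial, Y-linked, X-inactivation and vector genes and the neuron markers were left out of the ranking. Some genes and a gene list are not reported here. Other genes in the text were chosen after their values were seen. They are the remaining list members past the fold threshold, and genes of the marker groups. Python 3.11.15 (numpy 2.4.6, scipy 1.17.1, pandas 2.3.3, matplotlib 3.10.9) and edgeR 4.0.16 in R 4.3.3 (TMM factors only) were used, and ratios were checked on simulated counts. The 19 alternatives, 2 of them chosen after seeing the data, changed the scaling, the filters, the neuron threshold, the fold or the nuclei used.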

Additional observations from a re-analysis of the deposited data

Results flagged for a closer look

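The 6 genes with the most opposed ratios in neurons and other nuclei were singled out because they pointed one way in one population and the other way in the other, among genes with 20 CPM or more in both. Sema3c had a ratio of 0.637 in neurons and 2.10 in other nuclei, and Fbxl7 had 0.754 and 2.03. Gm48006 had 1.32 and 0.511, and Gm12296 had 1.26 and 0.514. Aldh1a1, a retinaldehyde dehydrogenase, had 0.776 and 1.90, and A330093E20Rik had 0.708 and 1.70. The difference between the populations was not tested, since each condition is 1 library. With nuclei thinned to 2000 UMIs, the neuron ratio crossed 1 for Sema3c (1.17), Gm12296 (0.844) and Aldh1a1 (1.08), and the ratio in other nuclei crossed 1 for Gm48006 (1.03). Fbxl7 then had 0.935 in neurons and 1.73 in other nuclei, and A330093E20Rik 0.857 and 1.247. Fbxl7 stood at 25.4 and 20.3 CPM in glutamatergic-marker neurons and at 228 and 340 CPM in endothelial-marker nuclei.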

How the results depend on the processing

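No paired analysis was possible because each group is 1 library, and for the same reason no replicate could be left out. Counts of genes past the threshold stayed within 1.5 times the main count except as follows, and for these the cause was not tested unless fewer or more genes entered. Median-of-ratios scaling gave 1149 higher in all nuclei, and TMM gave 1165 higher in all nuclei and 1125 higher and 609 lower in neurons. A mean of 5 CPM gave 1563 lower in all nuclei and 1407 in neurons, a mean of 20 CPM gave 591 and 532, and no filter gave 3279 higher and 6792 lower in all nuclei, 3499 and 6482 in neurons and 7190 and 5698 in other nuclei. With each nucleus scaled to the same total, 2465 were higher and 1953 lower in all nuclei, 1476 higher in neurons and 3071 lower in other nuclei. Thinning drew 2000 UMIs from each nucleus and left out nuclei with fewer, so every thinned value rests on the deeper nuclei. With nuclei thinned to 2000 UMIs, where 1 marker UMI defined a neuron, 1580, 1520 and 2213 were higher in all nuclei, neurons and other nuclei. At 1.5-fold the counts were 135 higher and 200 lower in all nuclei, 136 and 181 in neurons and 1505 and 927 in other nuclei. The neuron share was 29.8% and 40.3% in ad lib sleep and sleep deprivation with 5 or more marker UMIs. After thinning it was 64.6% and 66.1% of the nuclei with 2000 or more UMIs. Across scalings the share of higher among the genes past the threshold in neurons ran from 44.3% to 64.9%.

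Of 975 list medians in neurons under alternatives, 942 moved by less than 0.1 and, among lists whose median was at least 0.1 in size, 2 changed sign, both of TGF-beta and BMP signalling (0.0091 with nuclei scaled alike, 0.1135 thinned). In other nuclei 647 of 845 moved by less than 0.1 and 29 changed sign by the same rule. Scaling nuclei alike did so for Wnt (-0.0936), Notch (-0.1783), TGF-beta (-0.0708), Hedgehog (-0.1141), ERBB (-0.4906), VEGF (-0.192), mTOR (-0.0631), glycogen (-0.0539), phosphoinositides (-0.0251), perineuronal nets (-0.0273), collagens (-0.4454), integrins (-0.1153), thyroid and retinoid receptors (-0.0214), NF-kappaB (-0.134), complement (-0.0447) and the blood-brain barrier (-0.08). ERBB also had -0.1655 at 5 CPM, -0.0223 at 20 CPM and -0.0044 with no filter. With only nuclei of 0 neuron marker UMIs it had -0.3733, collagens -0.0073, perineuronal nets -0.045, thyroid receptors -0.0491 and complement -0.0, and with 1000 or more UMIs as well ERBB had -0.3044, mTOR -0.0184, perineuronal nets -0.0154 and thyroid receptors -0.0612. Under 1% mitochondrial UMIs collagens had -0.0653.

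Ratios past the threshold that crossed 1 were those of Sema3c (1.17), Gm12296 (0.844), Aldh1a1 (1.08) and Lama2 (1.0015) in neurons and of Gm48006 (1.03) and Igfbp2 (0.728) in other nuclei, all thinned, and of Tgfa (0.955) and Rarb (0.884) in glutamatergic-marker neurons alone and of Pde1c (0.967), Rgs9 (0.962) and Rarb (0.939) without striatal-marker neurons. Depth limits the marker groups, where a gene at 20 CPM rests on few UMIs.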
